A study of Homo sapiens with 6 samples.

Results

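The cytosolic ribosome of human cells is built from a large and a small subunit, and each holds ribosomal RNA and a fixed set of ribosomal proteins. The genes of these proteins were studied here in SH-SY5Y, an established human neuroblastoma line used as a neuronal cell model, after inhibition of miR-137, a brain-enriched microRNA. A gene was a member when its only annotated symbol was RPL or RPS followed by a number (with A or X where the name has it), or by P0, P1, P2 or A. The brightest probe set of each gene, by its mean over all arrays, stood for the gene. This gave 67 genes of the 12639 tested, 43 of the large and 24 of the small subunit, and all 67 reached the minimum signal, a log2 value of 5.69. *RPLP0*, of the ribosomal stalk, and *RPS27A*, made as a fusion with ubiquitin, were not analysed here.

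Total RNA of 6 samples was measured on 1-colour oligonucleotide arrays. In 3 samples the cells had been transfected with an anti-miR against hsa-miR-137, and in the other 3 with Anti-miR Negative Control #1, both at 15 pM as the labels give it. Transfection was done 24 hours after seeding, and RNA was isolated after a further 72 hours. The stated aim was to find new targets of miR-137. The replicates are numbered 1 to 3 in both groups, and the labels do not say whether a number marks a culture, a day or a well. If the arrays of a group do not come from separate cultures, the p-values reflect technical spread alone. The number of arrays limits the precision.

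The values are log2 values on a scale that makes the distributions of the arrays alike, so only differences relative to the other transcripts can be seen. The array medians lay between 6.39 and 6.43 and the highest value of every array at 15.3. RNA integrity numbers ran from 9.5 to 9.8, with 9.5 and 9.7 in the replicate 1 samples, 9.7 and 9.8 in replicate 2 and 9.7 in both of replicate 3. Of 12 markers of noradrenergic neuroblastoma, 11 were measured and all of these passed the minimum signal, with means of 8.28 to 14.5. Of 13 markers of other cell types 6 passed, with means up to 8.82.

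Ribosomal proteins are assembled in fixed proportions, and their mRNAs are among the most abundant of a growing cell. Most of them belong to the TOP mRNAs, whose transcripts begin with a C followed by an uninterrupted run of pyrimidines (a terminal oligopyrimidine tract). Through this tract the kinase complex mTORC1 and the binding protein LARP1 control how strongly the mRNAs are translated, so a cell can change the output of these genes with little change in mRNA. The arrays measured mRNA and not translation.

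The sequence around the annotated start of transcription showed this shared feature. RefSeq windows on GRCh38.p14 covered 57 of the 67 genes. In 42 of the 57 (73.7%) the annotated first base was a C followed by at least 4 pyrimidines, against 5.14% of all 27305 genes in the table. When the run could begin within 5 bases of the annotated start, the shares were 86.0% and 25.2%. The start sites come from the annotation and were not measured in these cells. The lines that follow show 25 bases each, 10 before the annotated start and 15 from it on, with the pyrimidine tract in capitals. They cover the genes with the greatest differences between arrays, the least variable gene, and members with named roles, and *RPL6* is shown as a gene with no tract at the annotated base.

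RPL34, chr4:108620566-108620590, plus strand: cttttttcttCCTCTTCCggggacg
RPL38, chr17:74203668-74203692, plus strand: aagtctcgttCTTTTTCgtcctttt
RPL29, chr3:51995881-51995905, minus strand: cagcccctttCTCTTCCggttctag
RPL36, chr19:5690285-5690309, plus strand: cggcgccagcCCTTCCgccacggcc
RPL27A, chr11:8682782-8682806, plus strand: gaaggccttcCTTTTTCgtctgggc
RPL35A, chr3:197950180-197950204, plus strand: gggcctcgtcCTTCTCTTaccgcca
RPLP1, chr15:69452808-69452832, plus strand: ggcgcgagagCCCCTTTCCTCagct
RPLP2, chr11:809957-809981, plus strand: tcggcgccttCCTTTTCCTCCCTgt
RPL12, chr9:127451392-127451416, minus strand: cgatttccggCCTCTCggctttcgg
RPL11, chr1:23691796-23691820, plus strand: gctccgctttCTCTTCCTgctctcc
RPS6, chr9:19380222-19380246, minus strand: gaagttggccCTCTTTTCCgtggcg
RPL41, chr12:56116623-56116647, plus strand: cttcgcctttCTCTCggccttagcg
RPL6, chr12:112411428-112411452, minus strand: gtatcctcagtgaatcagaaccaga

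The tract ran from 5 bases in *RPL41* to 13 in *RPLP2* among the genes shown. Motifs were searched on both strands in the whole window of 300 bases. The letters CCGGAAG, the core bound by ETS factors, occurred in 36.8% of the 57 genes and 12.2% of all genes in the table. It can overlap the tract, as in *RPL29* and *RPL34*, where the pyrimidines run into its reverse complement CTTCCGG. The YY1 motif AAGATGGC occurred in 10.5% and 3.52%. The TATA box letters TATAAA occurred in 4 of the 57 genes and 3819 of 27305, and the E-box CACGTG in 7.02% and 8.77%. These matches describe the sequence only.

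The probe sets of the members lay near the top of the scale. Their means had a median of 14.7, 61 of 67 were at 14 or above, and 43 of the 50 brightest of all 12639 genes were members. Such signals do not rank the transcripts, because probe sets differ in how well they bind. *RPL36* (12.5), *RPL38* (13.4), *RPL7* (13.4) and *RPS9* (13.7) had means between 12 and 14. *RPL35A*, a gene mutated in Diamond-Blackfan anaemia, had a mean of 11.2, and *RPL27A* one of 6.69. *RPL27A* was represented by its only usable probe set, and a probe set at 14.8 annotated to both *RPL35A* and *ZNF391* was not used. Of the 67 probe sets, 36 carried the suffix _x_at and 22 the suffix _s_at, which mark probes that can bind other transcripts as well. Ribosomal protein genes have many processed pseudogenes, so signal from near-identical copies cannot be told apart from that of the gene there.

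The bright probe sets that stand for the members varied little between arrays. The standard deviation over the 6 arrays had a median of 0.037 log2 units over the 67 genes, against 0.101 over all genes and 0.057 over the brightest 5% of them. The 38 other genes with a mean of 14 or above had a median of 0.047. *RPL41*, which encodes a very short peptide of the large subunit, varied least. It measured 15.13, 15.15 and 15.14 in anti-miR-137 replicates 1, 2 and 3, and 15.13, 15.13 and 15.14 in the control replicates, an SD of 0.0063. The next smallest SDs were those of *RPL14* (0.013), *RPL36A* (0.017) and *RPLP1* (0.017). The largest were those of *RPL27A* (0.34), *RPL34* (0.11), *RPL36* (0.10) and *RPL38* (0.097). A second probe set of *RPL41*, with a mean of 12.9, had an SD of 0.082, so the small spread belonged to the bright probe set. For the members' dimmer probe sets the median SD was 0.082 at means of 12 to 14, against 0.064 over all probe sets there, and 0.098 against 0.091 at means of 8 to 12. It was 0.15 against 0.13 for those below 8. On probe sets without cross-hybridisation suffixes, 30 members had a median SD of 0.093, against 0.107 over all genes. Their means had a median of 10.6, against 8.20 over all genes, so the signal levels are not matched there.

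**Figure D1:**
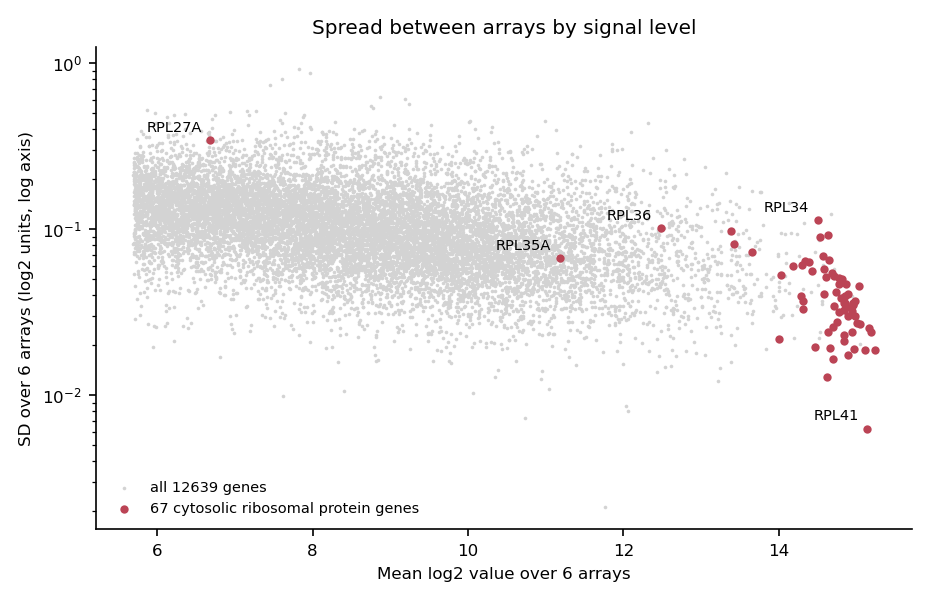
Standard deviation over the 6 arrays (log2 units, log axis) against the mean log2 value over the 6 arrays, 1 point per gene. Ribosomal protein genes are red and all 12639 genes grey; most red points lie at the bright, low-spread end, *RPL41* lowest at 0.0063 and *RPL27A* at 0.34.

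Inhibition of miR-137 was compared with the control first. No ribosomal protein mRNA was called as changed: 0 of 67 members passed an adjusted p of 0.05 in limma, where 0% of all genes passed. At an unadjusted p under 0.05 there were also 0 members, against 2.65% of all genes, and the smallest unadjusted p of a member was 0.37 (limma). The log2 fold changes of anti-miR-137 over control had a median of 0.0082 over the members and 0.0033 over all genes. They ran from -0.063 for *RPL6* to 0.20 for *RPL27A*, and 66 of 67 were smaller in size than 0.1, against 78.8% of all genes. Of the 67, 47 were higher and 20 lower after inhibition, where 52% of all genes were higher. With quantile normalization or cyclic loess on top of the deposited scale 45 and 48 were higher, with medians of 0.0078 and 0.0085. With each array centred on its median 24 were higher and the median was -0.0079, against -0.013 over all genes. The direction of the split thus depended on the scaling.

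The intervals give what size of difference these arrays leave possible under the variance model of limma. That model draws the variance of each gene towards a value shared by all genes. *RPL41*, with an SD of 0.0063 over the 6 arrays, had a standard error of 0.053. The intervals of the least variable members thus largely reflect the shared value and not their own spread. The 95% confidence interval from limma lay within 0.2 log2 units of 0 for 58 of 67 members, against 25.9% of all genes. It lay within 0.25 log2 units (18.9% higher or 15.9% lower) for 66 of 67, against 49.8% of all genes, with *RPL27A* (-0.32 to 0.73) the exception. The median half-width was 0.14 over the members and 0.19 over all genes. This fit had no term for replicate number, so differences between numbers can widen the intervals. *RPL34* had an interval of -0.24 to 0.19, with differences of -0.046, 0.028 and -0.049 within replicates 1, 2 and 3. Intervals with a replicate block are not given here. With a variance prior that follows the signal level the median half-width of the members was 0.084 and 0 members passed.

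**Figure D2:**
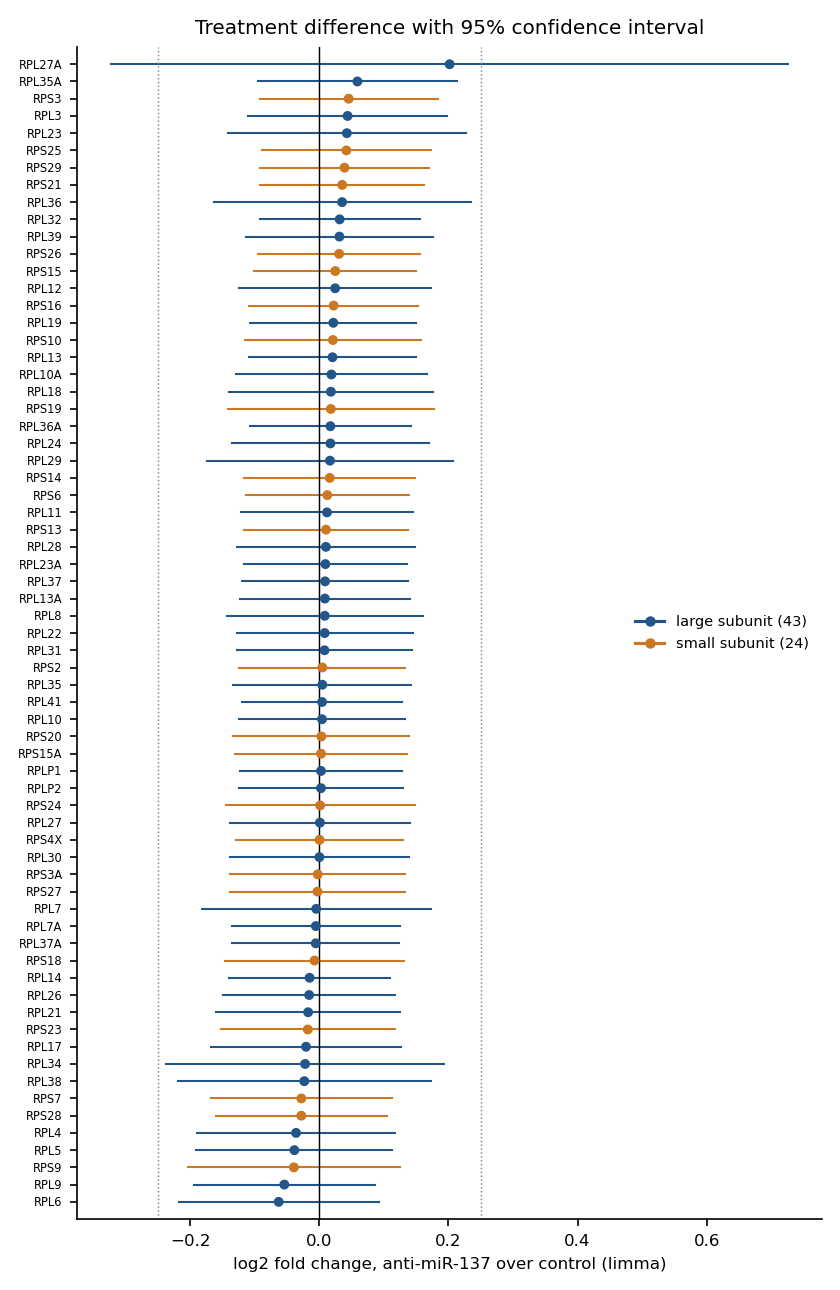
Log2 fold change of anti-miR-137 over control for each of the 67 genes, with its 95% confidence interval from limma (3 arrays in each group); blue marks the large and orange the small subunit, dotted lines mark 0.25 log2 units on either side of 0. Every interval includes 0, and all but that of *RPL27A* lie between the dotted lines.

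Among the higher fold changes, *RPL27A*, a protein of the large subunit, measured 6.63, 6.68 and 7.06 in anti-miR-137 replicates 1 to 3 and 6.17, 6.52 and 7.07 in the control replicates. The arrays of the groups overlapped, and the log2 fold change of 0.20 had a standard error of 0.22. *RPL35A* measured 11.15, 11.20 and 11.28 in anti-miR-137 cells and 11.09, 11.14 and 11.22 in control cells. Its anti-miR-137 value was the higher in each number, with a log2 fold change of 0.059 and a standard error of 0.066. *RPS3*, which lies at the mRNA entry of the small subunit, measured 14.93, 14.87 and 14.89 against 14.90, 14.85 and 14.79 (0.045). *RPL3*, a protein close to the peptidyl transferase centre, *RPL23* and *RPS25*, a protein needed by several viral internal ribosome entry sites, had log2 fold changes of 0.044, 0.043 and 0.042. The adjusted p was 1.00 for each of these genes (limma).

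Among the lower fold changes, *RPL6* measured 14.58, 14.57 and 14.46 in anti-miR-137 cells and 14.63, 14.53 and 14.64 in control cells, and the groups overlapped (log2 fold change -0.063, standard error 0.066). *RPL9*, a protein at the base of the ribosomal stalk, measured 14.63, 14.60 and 14.53 against 14.69, 14.61 and 14.61. It was the 1 member with a lower anti-miR-137 value in all 3 numbers (-0.054). *RPS9*, *RPL5*, *RPL4*, which lines the exit tunnel of the nascent chain, and *RPS28* had -0.039, -0.039, -0.036 and -0.028. None passed (adjusted p = 1.00 in limma).

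The order of the arrays was also counted. The groups did not overlap for 2 members, *RPL32* and *RPS26*, both higher in anti-miR-137 cells and named after their values were seen, where 7.36% of all genes did not overlap and 4.19% did so with higher values. Their log2 fold changes were 0.031 each. The anti-miR-137 array was the higher one in all 3 numbers for 14 members (20.9%), against 15% of all genes, and the lower one for 1 member (1.49%), against 13.2%. Within replicate 1 the median difference over the members was -0.0012 with 33 of 67 higher, within replicate 2 it was 0.025 with 49 higher, and within replicate 3 it was 0.011 with 39 higher. Over all genes the shares higher were 49.6%, 47.7% and 56.9%. With an array left out (3 arrays against 2), 4 to 13 members did not overlap, against 12.8% to 19.6% of all genes.

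Members with well-known roles were no exception. In the P stalk, the arm of the large subunit that recruits translation factors, *RPLP1* measured 14.86, 14.88 and 14.92 in anti-miR-137 cells and 14.88, 14.89 and 14.88 in control cells, which differ by 0.0025 log2 units. *RPLP2* had 0.0025 as well, and *RPL12*, which binds the stalk base, had 0.024. The groups overlapped for all of them. *RPL5* and *RPL11* form with the 5S rRNA the particle that binds MDM2 when ribosome assembly fails, and had -0.039 and 0.012. *RPS6*, the substrate of the S6 kinases, measured 14.68, 14.67 and 14.65 against 14.67, 14.66 and 14.62, a log2 fold change of 0.012. The 8 measured genes of the Diamond-Blackfan anaemia list ran from -0.039 to 0.059, and 6 of the 8 were higher.

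Genes around the ribosome were taken from lists, and 0 passed for treatment in each list (limma; 0 also at an unadjusted p under 0.05). Over all genes 52% had higher values, and 5399 of 12639 with median centring. Of 44 ribosome assembly genes 31 had higher values (median 0.031). The count was 26 with median centring (median 0.015) and 35 with quantile normalization or cyclic loess. *NOP2*, an rRNA methyltransferase (0.17), and the kinase *RIOK1* (0.12) were first by p. Of 73 mitochondrial ribosomal protein genes 57 had higher values (median 0.023), led by *MRPL4* (0.13) and *MRPL55* (0.099). Their count was 44 with median centring and 58 with quantile normalization or cyclic loess. Of 16 other TOP mRNAs, which encode mainly elongation and initiation factors, 8 had higher values (median -0.0015), with *NAP1L1* (-0.061) and *EIF3E* (-0.054) first by p. It was 4 with median centring and 8 with quantile normalization or cyclic loess. Of 19 genes of RNA polymerase I transcription 8 were higher (median -0.011), with *UBTF* (-0.11) and *TAF1B* (-0.12) first. With quantile normalization 11 were higher (median 0.0068), with cyclic loess 10 and with median centring 4. Of 17 genes of TOP control and nucleolar stress 6 were higher (median -0.030), with *MDM2* (-0.23) and *TSC2* (-0.11) first. Among 8 ribosomal protein-like paralogs, *RPL3L*, the muscle paralog of *RPL3*, had 0.23 and *RPL22L1* 0.11. *FAU*, whose product is cleaved to a small subunit protein and lies outside the symbol rule, had 0.031.

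The members differed more between replicate numbers than between treatments. As a description, the replicate number held a median of 71.1% of a member's sum of squares over the 6 arrays and the treatment 4.71%, against 58.0% and 8.32% over all genes. The replicate number has more levels than the treatment, so noise alone would give it the larger share. The values of most members were highest in the replicate 1 arrays and lowest in the replicate 3 arrays, by a few hundredths of a log2 unit. The median deviation of the 67 genes from their own means was 0.031 and 0.032 in replicate 1 (the anti-miR-137 array is given before the control array), 0.0020 and -0.021 in replicate 2, and -0.021 and -0.029 in replicate 3. In the replicate 1 arrays 59 and 55 members lay above their own mean, in replicate 2 37 and 17, and in replicate 3 15 and 16. A replicate 1 array held the highest value of 54 members (80.6%), against 35.2% of all genes, and a replicate 3 array the lowest of 53 (79.1%), against 40.1%.

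**Figure D3:**
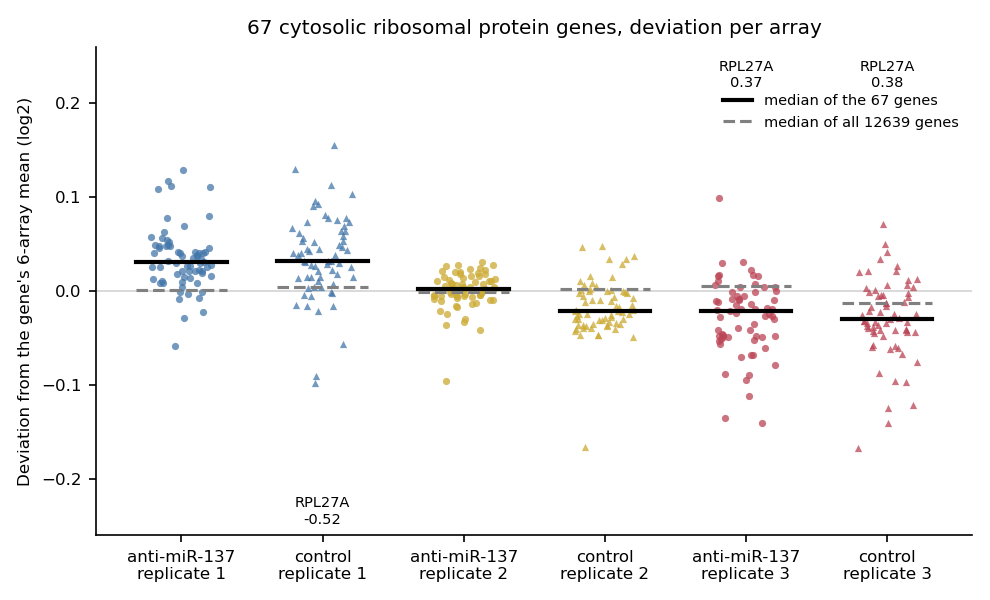
Deviation of each of the 67 genes from its own mean over 6 arrays (log2 units), by array; circles are anti-miR-137 and triangles control arrays, the solid bar is the median of the 67 genes and the dashed bar that of all 12639 genes. The solid bars lie at 0.031 and 0.032 in replicate 1 and at -0.021 and -0.029 in replicate 3; *RPL27A* points outside the axis are written with their values.

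Replicate number was tested in limma with the treatment as a second term. By the F test over the numbers 0 of 67 members passed, against 2.53% of all genes, and 2 members had an unadjusted p under 0.05 (*RPL27A* and *RPL34*), against 23.5%. Between replicates 3 and 1, 6 members had an unadjusted p under 0.05 (limma), against 28.4% of all genes. After adjustment 1 member passed, *RPL27A*, which rose, where 8.23% of all genes passed, 4.39% with higher and 3.84% with lower values in replicate 3. Between replicates 2 and 1 and between 3 and 2, 0 members passed, against 0.0316% and 0.00791% of all genes, and the median differences were -0.037 and -0.015. Same-sided small differences thus made up the pattern in the members, and almost none of them passed singly.

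In sign, 60 of 67 members were lower in replicate 3 than in replicate 1, against 53% of all genes. The median difference was -0.058, against -0.012 over all genes, and it was -0.025 against -0.033 with quantile normalization on top of the deposited scale. Under that scaling 50 members were lower and 15 higher, against 7390 and 5246 of all genes. Quantile normalization makes the top values of the arrays alike, and 43 of the 50 brightest genes were members. It can remove part of a shift that the members share, so it cannot show that they moved like all genes. With median centring the median was -0.035 against 0.012, and with cyclic loess -0.055 against -0.029. Both replicate 3 arrays lay below both replicate 1 arrays for 49 members (73.1%), against 31.9% of all genes, and above them for 3 members (4.48%), against 28.9%. With quantile normalization on top the first count was 27 members, against 36.6% of all genes. The large subunit had 37 of 43 lower with a median of -0.072, and the small subunit 23 of 24 with -0.041. The 38 genes outside the list with a mean of 14 or above had 26 higher and a median of 0.049. Under the 3 other scalings their median was 0.047 to 0.072. Members made up 61 of the 99 genes at that level, and the deposited scale makes the distributions of the arrays alike. Lower members and higher other genes there are therefore not independent.

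The members with the most negative differences did not pass the adjusted threshold. *RPL34*, of the large subunit, measured 14.61 and 14.66 in replicate 1 (again with the anti-miR-137 array named before the control), 14.49 and 14.46 in replicate 2, and 14.37 and 14.41 in replicate 3. The numbers did not overlap between 1 and 3, and the difference of -0.24 had a standard error of 0.061 (adjusted p = 0.068 in limma). *RPL38*, whose loss in mice disturbs the patterning of the skeleton, measured 13.49 and 13.49, then 13.38 and 13.34, then 13.24 and 13.34, a difference of -0.20 (adjusted p = 0.12 in limma). *RPL29* measured 14.71 and 14.76, then 14.64 and 14.59, then 14.57 and 14.51 (-0.19, adjusted p = 0.12 in limma). In each of the 3, both replicate 3 arrays were below both replicate 1 arrays. *RPL36* (-0.20), *RPL23* (-0.19), *RPL18* (-0.13) and *RPS9* (-0.12) also had lower values, with adjusted p between 0.12 and 0.27 (limma).

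On their brightest probe sets 7 members were higher in replicate 3. *RPL27A* measured 6.63 and 6.17 in the replicate 1 arrays, 6.68 and 6.52 in replicate 2, and 7.06 and 7.07 in replicate 3, a difference of 0.67 with a standard error of 0.12 (adjusted p = 0.030 in limma). This call ended with either array of replicate 1 or either array of replicate 3 left out, when 0 members passed and 0 to 3 of all genes did. It also ended with the RNA integrity number as a covariate, when 0 of all genes passed. These fits have fewer residual degrees of freedom than the 2 of the main fit, and a left-out array leaves its number with 1 array. The lost call therefore cannot be told apart from a loss of precision. *RPL35A* was higher by 0.13 and *RPL39*, a small protein of the exit tunnel, by 0.049, neither past the test. The other members with higher values in replicate 3 were *RPL22*, *RPLP1*, *RPS2* and *RPL41*, at 0.0040 to 0.039. Other probe sets had the opposite sign for several of them: -0.25 and -0.21 for *RPL22*, -0.16 for *RPL41* and -0.11 for *RPS2*.

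The count of calls rested on how the variance was modelled. With a variance prior that follows the signal level, 13 members passed between replicates 3 and 1 in limma, against 18.2% of all genes. Of the 13, 12 fell, against 8.01% of all genes with lower values, and *RPL27A* rose, against 10.2% with higher values. They were *RPL7*, *RPL12*, *RPL17*, *RPL18*, *RPL23*, *RPL24*, *RPL29*, *RPL34*, *RPL36*, *RPL38*, *RPS9* and *RPS19*, named after their values were seen. The F test then called 8 members, against 14.2% of all genes. Between replicates 2 and 1 it was 1 member, *RPL34*, against 2.58%, and between 3 and 2 it was 0, against 4.64%.

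Among probe sets above the minimum signal, the brightest had the smallest median difference. The 67 genes had 193 probe sets, of which 181 reached the minimum signal. Of 109 with a mean of 14 or above, 101 were lower in replicate 3 than in replicate 1, with a median of -0.063. Of 24 with means of 12 to 14, 24 were lower, with a median of -0.15. Of 27 with means of 8 to 12, 21 were lower (median -0.11), and of 21 dimmer ones 15 (median -0.075). Of the 12 below the minimum, 5 were lower (median 0.051). Among the 51 with means of 8 to 14 the median was -0.15, and under quantile normalization, median centring and cyclic loess it was -0.17, -0.12 and -0.16, with 43 to 48 of 51 lower. On these dimmer probe sets the lower values therefore did not turn with the scaling. Whether the scale is compressed near its top was not tested.

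**Figure D4:**
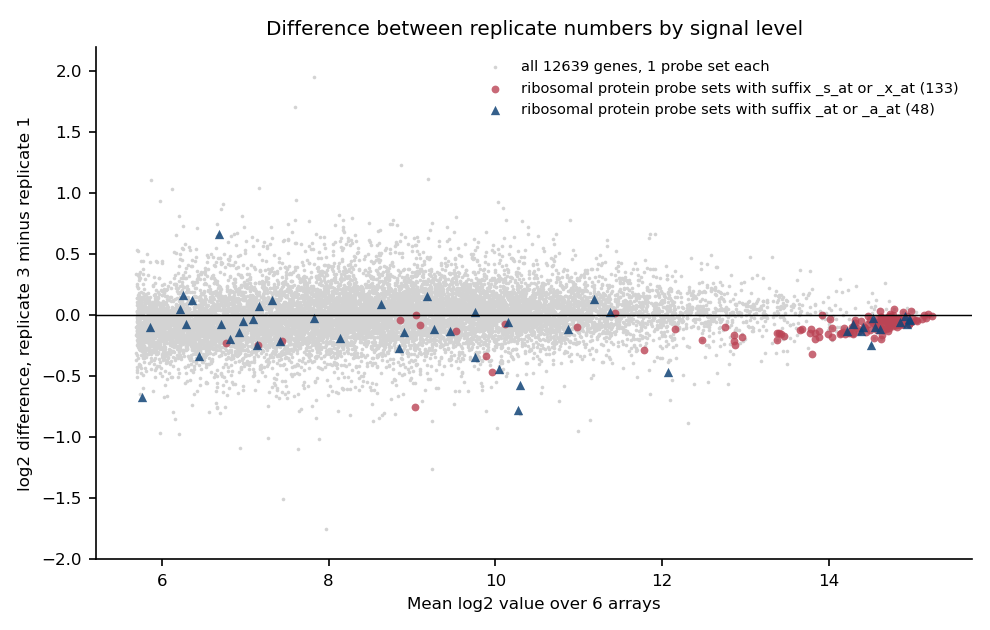
Log2 difference of replicate 3 minus replicate 1 against the mean log2 value over 6 arrays; grey points are all 12639 genes, red circles the members' probe sets with suffix _s_at or _x_at (133) and blue triangles those with _at or _a_at (48). The crowd of points above 14 has a median of -0.063, and probe sets between 12 and 14 one of -0.15. With quantile normalization on top the members' brightest sets had a median of -0.025, against -0.033 over all genes. That scaling makes the top of the arrays alike, where these sets lie, so it can remove part of a shift they share.

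The other probe sets of the members were also mostly lower in replicate 3. Of 114 that passed the minimum, 101 were lower than in replicate 1, with a median of -0.11. For treatment 65 of the 114 were higher, with a median of 0.0061, and 60 had the sign of their gene's brightest set. Tested one by one over all 27514 probe sets, 7 of 181 passed between replicates 3 and 1 in limma, against 5.44%. Of these 6 fell, against 1.94%: 2 probe sets of *RPL31* (-0.78 and -0.47), and 1 each of *RPL32* (-0.76), *RPS18* (-0.67), *RPL37* (-0.57) and *RPS15A* (-0.46). The brightest set of *RPL31* measured -0.075 and that of *RPL32* -0.0037. Those of *RPS18*, *RPL37* and *RPS15A* measured -0.074, -0.0075 and -0.042. The dimmer *RPL31* set measured 10.61 and 10.73 in replicate 1, 10.22 and 10.31 in replicate 2, and 9.83 and 9.96 in replicate 3. Probe sets of a gene can see different transcripts, and which of them it sees was not tested. *RPL39* showed opposite signs, 0.049 on its brightest set and -0.31 on a set with a mean of 13.8. *RPL35A* did so too, 0.13 on its brightest and -0.14 on a dimmer set.

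Probe sets without the suffixes _s_at and _x_at are designed to be specific to a gene, and 30 members had one. They had a median difference of -0.085 between replicates 3 and 1, with 23 of 30 lower. Of the 30, 5 fell in limma (*RPL31*, *RPL37*, *RPS15A*, *RPS18* and *RPS29*, at -0.78 to -0.34), against 3.41% of 10986 genes, and *RPL27A* rose, so that 6 passed against 8.3% in both directions. The sets of *RPL31*, *RPL37*, *RPS15A* and *RPS18* that fell are among those already named above, so they are not further measurements. All sets that fell were dimmer than the brightest set of their gene. That of *RPS18*, with a mean of 5.76, lay at the minimum signal. The brightest sets of *RPL31*, *RPL37*, *RPS15A*, *RPS18* and *RPS29* measured only -0.075, -0.0075, -0.042, -0.074 and -0.051. The F test called 3 of them (*RPL31*, *RPL37* and *RPS18*), against 2.85%. For treatment 0 passed. These genes were named after their values were seen.

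Among the roles, the exit tunnel group had 7 of 8 members lower in replicate 3 (median -0.069) and the P stalk 2 of 3 (median -0.045). The decoding and mRNA entry group had 3 of 4 lower (median -0.018) and the mRNA exit group 3 of 3 (median -0.035). *RPL5* and *RPL11* differed by -0.11 and -0.069. *RPL12* measured 14.76 and 14.72 in replicate 1, 14.69 and 14.67 in replicate 2, and 14.63 and 14.61 in replicate 3 (-0.12). *RPS6* was lower by a difference of -0.038. The 42 genes with a pyrimidine tract at the annotated start, such as *RPL34* and *RPL38* above, had 36 lower with a median of -0.060, and the 15 without it had 15 lower with -0.051. The test that called *RPL27A* alone called no member as lower, so no role group could hold one. Differences between role groups were not tested.

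The other lists of the translation machinery did not all share this direction. Of 16 other TOP mRNAs 12 were lower in replicate 3, with a median of -0.12, and 2 fell in limma, where 3.84% of all genes fell and 4.39% rose: the elongation factor subunit *EEF1D* (-0.47, adjusted p = 0.020) and vimentin, *VIM* (-0.40, adjusted p = 0.022). *EEF1A1*, the main elongation factor gene, measured 0.039. Ribosome assembly genes had 33 of 44 higher with a median of 0.052, and *TSR1*, which acts in maturation of the small subunit, rose (0.34). The other TOP mRNAs and the assembly genes had medians of the same sign under the 3 other scalings, -0.13 to -0.098 and 0.022 to 0.075. Mitochondrial ribosomal protein genes had 44 of 73 higher with a median of 0.025, which turned to -0.0036 with quantile normalization and to -0.0091 with cyclic loess, and 0 passed. Of the 8 paralogs 6 were lower and *RPL22L1* fell (-0.38). Of 19 genes of RNA polymerase I transcription 10 were higher, against 6 with quantile normalization or cyclic loess, and *TAF1D* fell (-0.32). In the TOP control and nucleolar stress list, *EIF4E*, the cap-binding factor, rose (0.29), while *MYC*, which drives transcription of ribosomal genes (-0.39), and *CDKN2A* (-0.38) fell. The genes called here were named after their values were seen. With the RNA integrity number as a covariate, or with an array of replicate 1 or 3 left out, almost no gene passed. Lost calls in those fits cannot be told apart from a loss of precision.

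**Figure D5:**
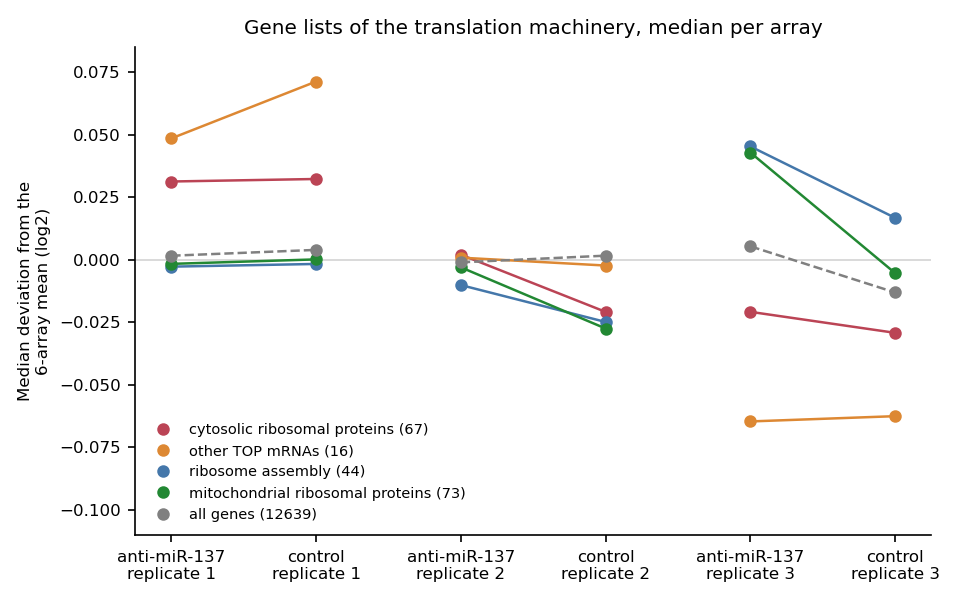
Median deviation from the gene's 6-array mean (log2 units) per array for 4 lists and all genes; each line joins the anti-miR-137 and the control array of the same number. Cytosolic ribosomal proteins (red) and other TOP mRNAs (orange) lie highest in replicate 1, and ribosome assembly genes (blue) highest in replicate 3. With quantile normalization on top the members' median difference of replicate 3 minus 1 was not below that of all genes. That scaling makes the top of the arrays alike, where the members lie, so it cannot show that they moved like all genes.

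Other measures also differed between the numbers. The median difference of replicate 3 minus 1 was 0.022 for the 11 noradrenergic markers and -0.068 for the 13 markers of other cell types. The log2 of the summed signal of the noradrenergic markers was 16.6 in each replicate 1 and replicate 3 array and 16.7 in the replicate 2 arrays. That of the other cell types was 10.3 and 10.1 in replicate 1, 10.2 and 10.2 in replicate 2 and 10.2 and 10.2 in replicate 3 (anti-miR-137 first). Their part in the members' differences was not tested, and with 2 arrays per number the number cannot be told apart from anything else those arrays share.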

How the data were processed

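Per the submitters' processing notes, the authors used RMA with R 3.0.1, and what they deposited is log2 signal for each probe set. The method subtracts background, equalises the arrays' distributions and summarises probes, so a change shared by all transcripts cannot be seen. The file held 49495 probe sets, 102 of them controls. The platform annotation gave 45278 others 1 symbol, 1333 several and 2782 none, and only those with 1 symbol were used.

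Probe sets with a mean at or above the 40th percentile (5.69) were kept, and the brightest stood for its gene. Treatment (3 arrays against 3, no other term) and replicate number (2 arrays each, with treatment as a term) were tested with limma 3.58.1 in R 4.3.3, two-sided, with Benjamini-Hochberg adjustment over 12639 genes and a threshold of 0.05. Scripts were tested on simulated data. No arrays were alike: the root mean square difference over the members was 0.042 to 0.15 for the 15 pairs.

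Named were the 6 members with the highest and lowest fold changes, the 6 with the smallest F test p, the 2 most extreme for each pair of numbers, the 4 most and least variable, members of the P stalk, 5S particle, ubiquitin fusion and signalling groups, and 2 genes per other list by treatment p. Members and lists were chosen with earlier results of these data known. Same-numbered arrays deviated together with correlations of 0.55, 0.073 and 0.65, not all over 0.1. The labels do not say that a number marks a shared culture or day, so the numbers were not taken as pairs in the main fit. The treatment intervals therefore include the differences between numbers. Alternatives were other filters, probe set choices, scalings, variance models, covariates and left-out arrays. Start windows were read from RefSeq (GRCh38.p14).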

Additional observations from a re-analysis of the deposited data

How the results depend on the processing

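For treatment, 0 members passed the adjusted threshold under each alternative run and with each array left out (0 to 0). With the replicate block, 0 members passed, so the block changed no call. It cannot change a fold change, because each number holds 1 array of each treatment, so the median of 0.0082 is the same by design. Each array was most like the other array of its number, a hint from the data only. Leaving out an array gave 0 to 1 members at an unadjusted p under 0.05 (limma), 4 to 13 without overlap (12.8% to 19.6% of all genes), and medians of -0.0069 to 0.023; the median was -0.0079 with median centring. The 2 members without overlap became 4 with quantile normalization on top, 1 with cyclic loess and 0 without _s_at and _x_at probe sets. Of 26 named members, 17 kept the sign of their fold change with array weights and 17 without control replicate 3.

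Between replicates 3 and 1, the 1 call became 0 with no filter and with the RNA integrity number as a covariate, 2 with array weights (11.9% of all genes), 2 with replicate number alone (9.81%), 4 with the mean of all kept probe sets (8.92%), 6 without _s_at and _x_at probe sets (8.3%), 7 of 181 with each kept probe set on its own (5.44%; chosen after seeing the data) and 13 with the variance prior that follows intensity (18.2%). With an array left out it was 0 to 1. The F test gave 3 without those suffixes and 8 with that prior, which also gave 1 between replicates 2 and 1. With arrays left out, the F test and the other pairs of numbers gave 0 to 0.

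The median of replicate 3 minus 1 was -0.11 with the mean of probe sets, -0.085 without the suffixes, -0.035 with median centring, -0.025 with quantile normalization, and -0.070 to -0.051 with an array left out. That of 2 minus 1 was -0.059 with the mean of probe sets, -0.019 with quantile normalization, -0.024 with cyclic loess and -0.050 to -0.025 with an array left out. That of 3 minus 2 was -0.033 with the mean of probe sets, -0.031 without the suffixes, 0.0045 with median centring, which turned its sign, and -0.028 to -0.0098 with an array left out. The median SD was 0.058 with the mean of probe sets, 0.093 without the suffixes and 0.033 to 0.040 with an array left out. The causes of these shifts were not tested. With 2 arrays per number and signals near the top of the scale, differences of a few hundredths of a log2 unit are at the limit of what single genes can show here.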
